A study of Mus musculus with 39 samples.

Results

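To follow the developing neocortex in cells that keep both parental copies of chromosome 7, yellow (GFP+/tdT+) cells of E16 embryos were compared with yellow cells of E13 embryos. Mosaic Analysis with Double Markers (MADM) rebuilds split GFP and tdTomato genes when Cre recombinase exchanges 2 homologous chromosomes. A yellow cell carries both markers and serves as the control for its red and green counterparts. All embryos were MADM-7 GT/TG, with the MADM cassettes on chromosome 7 and Cre under the control of Emx1, a gene of the dorsal telencephalic progenitors that give rise to cortical projection neurons and later to astrocytes. The members were the yellow libraries of E16 replicates 1 to 7 and of E13 replicates 1, 2, 4, 5 and 6, 12 of the 39 libraries of the series. E13 yellow replicate 3 was left out because under 40% of its reads aligned to a unique place, which leaves 5 of 6 yellow libraries at E13 and 7 of 7 at E16.

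Each library was a small pool of sorted yellow neocortical cells from a single embryo, amplified with Smart-Seq2, so that 1 library is 1 embryo and the embryos of the ages are different animals. No gene was deleted and no agent was given. The sample labels name the strain CD1, while the housing notes describe a mixed C57BL/6J, CD1 background. At both ages the embryos came from crosses in both directions, which differ in the parent that gave each MADM chromosome. The sample details of the study list replicates 1 to 3 under one direction and replicates 4 and above under the other, except that E16 yellow replicate 3 is listed under the direction of replicates 4 and above. No sample number of that list holds both ages, so age cannot be told apart from whatever that number stands for. A pool mixed dividing progenitors with neurons, and in such bulk samples fewer cells of a type cannot be told apart from less RNA per cell.

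In the mouse neocortex, radial glia divide at the ventricle and pass through a timed series of states. Early ones give rise to the first-born neurons and to the deep layers, later ones to the upper layers and then to glia. Their daughters pass through an intermediate progenitor state or directly become neurons, leave the cell cycle, migrate outward and build axons, dendrites and synapses. Between E13 and E16 the output of the neocortex moves from deep-layer towards upper-layer projection neurons.

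The libraries held between 1032329 and 4329001 counts assigned to genes, with 50.9% to 65.9% of reads uniquely aligned. They had 7858 to 13768 genes with at least 1 count, and 18.02% to 44.1% of uniquely aligned reads lay in no annotated gene. A pair of libraries stood apart, E13 replicate 2 with 9655 detected genes and 40.9% of reads outside genes, and E16 replicate 7 with 7858 genes and 44.1%, while the other 10 libraries had 11334 to 13768 genes and at most 30.3% outside genes. The study lists both as not used in its own analysis. They were kept in the fit described first, and a value called "without the pair" comes from the same test on the other 10 libraries. The cell identity was checked with 7 genes of the Emx1-lineage pallium, whose summed level ran from 1177 to 1986 CPM (counts per gene scaled to the TMM-corrected size of the library) at E13 and from 1379 to 2383 at E16. Emx1 itself was low, at 0, 0, 15.7, 15.7 and 49.7 CPM at E13 (replicates 1, 2, 4, 5 and 6, the order used throughout) and 0, 1.03 and 28.8 CPM at E16 (lowest, median and highest of the 7 libraries, also used throughout).

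Which genes differed between E16 and E13 was asked across 11378 genes with a mean count of at least 10. With the edgeR quasi-likelihood test and Benjamini-Hochberg adjustment, 17 genes (0.149%) passed an adjusted p of 0.05, of which 11 (0.0967%) were higher at E16 and 6 (0.0527%) were lower. Among the genes that rose were those of the adhesion proteins Opcml, Chl1 and Ncam1, of the kinase Plk2 and of the nuclear protein Ssbp2, and a transcribed pseudogene, 1700086L19Rik. Those that fell comprised a Cajal-Retzius regulator (Ebf2), a progenitor regulator (Id4), an imprinted gene (Ndn), a pair of embryonic globins (Hba-x, Hbb-y) and BC017158. At an unadjusted p under 0.05 there were 989 genes (8.69%), 405 higher (3.56%) and 584 lower (5.13%). The 2 ages did not overlap for 83 genes that were higher (0.729%) and 83 that were lower (0.729%). The median log2 fold change over all tested genes was −0.06.

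The number of calls rested on single libraries. Without the pair that stood apart, 146 of 11204 genes (1.30%) passed, 88 higher (0.785%) and 58 lower (0.518%), and 16 of the 17 genes were among them, all but BC017158. Leaving out 1 library at a time gave between 1 gene (without E13 replicate 4) and 31 genes (without E16 replicate 7). Opcml passed in 12 of these 12 fits, 1700086L19Rik and Ube2ql1 in 11, Ebf2 in 8, Chl1 in 5 and the other 12 genes in 1 to 3 each. The direction of each of the 17 genes was the same in all 12 fits. In replicates 1 to 3 alone, and in replicates 4 and above alone, 0 genes passed in edgeR, with 598 and 712 genes at an unadjusted p under 0.05, and 17 of the 17 genes had the same direction in both. The 17 genes were picked on these same libraries, so a shared direction in such subsets is no independent check. E13 replicates 1 and 4, the libraries high in Hba-x and Hbb-y, fell in different subsets. DESeq2 called 195 genes on the 12 libraries.

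Several of the genes that rose code for proteins of the cell surface. Opcml, an IgLON adhesion protein of neurons (ENSMUSG00000062257.13, GRCm38 chromosome 9, 27790775 to 28925410), stood at 101, 153, 76.1, 88.1 and 65.5 CPM at E13 and at 296, 1238 and 2026 CPM at E16. All 7 E16 libraries lay above the 5 E13 libraries, a log2 fold change of 3.70 (SE 0.44, adjusted p = 0.00274, and 4.10 without the pair). Chl1, an L1-family adhesion protein that takes part in neuron migration and axon growth (chromosome 6, 103510586 to 103750211), had 107, 8.68, 77.1, 38.2 and 68.9 CPM at E13 and 351, 548 and 734 CPM at E16. The ages did not overlap, and the log2 fold change was 3.18 (SE 0.51, adjusted p = 0.0259, and 2.84 without the pair). Ncam1, the neural cell adhesion molecule (chromosome 9, 49502136 to 49798925), had 753, 405, 635, 1129 and 828.6 CPM at E13 and 1202, 2416 and 2828 CPM at E16. The lowest E16 library lay just above the highest E13 library, with a log2 fold change of 1.58 (SE 0.30, adjusted p = 0.0491, and 1.53 without the pair).

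Other genes that rose act inside the cell. Ube2ql1, a ubiquitin-conjugating enzyme (chromosome 13, 69702832 to 69739889), stood at 153, 44.3, 64.6, 27.0 and 66.2 CPM at E13 and at 411, 595 and 823 CPM at E16. Its ages did not overlap (log2 fold change 3.09, SE 0.44, adjusted p = 0.00936). Plk2, a polo-like kinase known for its activity-dependent role at synapses (chromosome 13, 110395046 to 110400844), had 119.6, 196, 73.6, 221 and 119 CPM at E13 and 337, 594 and 1038 CPM at E16. Again no E16 library reached down to an E13 library (log2 fold change 2.15, SE 0.37, adjusted p = 0.0275). Mturn, named maturin for its part in the maturation of neural progenitors (chromosome 6, 54681624 to 54703851), varied little within an age, with 145, 117, 137, 99.3 and 102 CPM at E13 against 297, 386 and 478 CPM at E16. The ages stood apart by a log2 fold change of 1.71 (SE 0.29, adjusted p = 0.0275). Mpped1, a metallophosphoesterase-domain gene of the fetal brain (chromosome 15, 83779467 to 83858494), had 242, 117, 188, 55.3 and 148 CPM at E13 and 459, 624 and 1135 CPM at E16, without overlap (log2 fold change 2.25, SE 0.39, adjusted p = 0.0275).

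Ssbp2, a nuclear single-stranded DNA-binding partner of LIM-domain transcription complexes (chromosome 13, 91460283 to 91703429), had 171, 326, 264, 330 and 221 CPM at E13 and 415, 919 and 1451 CPM at E16, without overlap (log2 fold change 1.8004, SE 0.33, adjusted p = 0.0421). The gene 1700086L19Rik (chromosome 12, 74284242 to 74295945) is annotated as a transcribed pseudogene. It stood at 20.8, 18.3, 10.3, 17.1 and 61.7 CPM at E13 and at 134, 417 and 921 CPM at E16, without overlap (log2 fold change 4.21, SE 0.59, adjusted p = 0.00936). The counts used no strand, and 11 of the 17 genes overlap at least 1 annotated gene on the other strand, from which their reads cannot be told apart.

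Among the genes that fell, Ebf2, a transcription factor of Cajal-Retzius cells (chromosome 14, 67233292 to 67430918), stood at 39.4, 24.4, 79.3, 138 and 163 CPM at E13 and at 0, 0 and 1.48 CPM at E16. The ages were far apart, with a log2 fold change of −8.03 (SE 1.22, adjusted p = 0.0161, and −8.11 without the pair). Id4, an inhibitor of basic helix-loop-helix transcription factors in neural progenitors (chromosome 13, 48261228 to 48266026), had 77.9, 74.1, 269.6, 328 and 313 CPM at E13 and 14.4, 22.9 and 38.02 CPM at E16. The highest E16 library lay below the lowest E13 library, a log2 fold change of −3.06 (SE 0.51, adjusted p = 0.0267, and −3.19 without the pair). Ndn, the paternally expressed necdin gene of postmitotic neurons (chromosome 7, 62346569 to 62350262), had 1687, 2110.2, 1941, 1631 and 2084 CPM at E13 and 167, 501 and 914 CPM at E16. Its E13 libraries were close to each other and all above E16 (log2 fold change −1.95, SE 0.33, adjusted p = 0.0267, and −2.13 without the pair).

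The embryonic globin genes, markers of primitive red blood cells, were carried by a pair of E13 libraries. Hbb-y had 28151, 1.17, 40081, 0.341 and 0.447 CPM at E13 and 0, 0.341 and 3.08 CPM at E16, and Hba-x had 3868, 2.81, 6516, 0 and 0 CPM at E13 and a single count in the 7 E16 libraries. E13 replicates 1 and 4 were high and the other E13 libraries overlapped with E16 (adjusted p = 0.0329 for Hbb-y and 0.0275 for Hba-x, for which the counts give an E13 to E16 ratio with a 95% counting interval of 6992 to 1538880). Without these 2 libraries 1 gene passed across the whole table. BC017158 was led by 1 library, with 6.94, 79.2, 5.38, 11.9 and 8.05 CPM at E13 and 1 count in all of E16, an E13 to E16 ratio of 454 (95% counting interval 81.0 to 17955, adjusted p = 0.0491). Without the pair that stood apart, of which E13 replicate 2 was its highest library, its adjusted p was 0.0734.

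**Figure D1:**
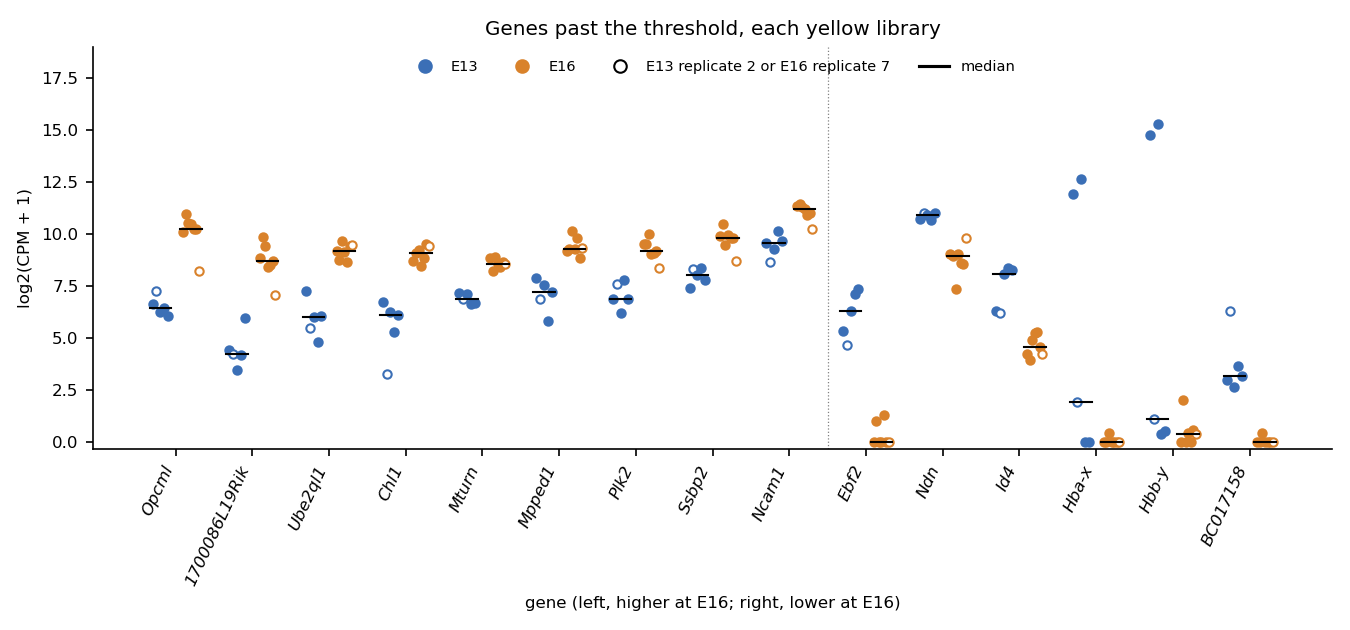
Log2(CPM + 1) of 15 of the 17 genes that passed an adjusted p of 0.05, 1 point for each of the 5 E13 and 7 E16 yellow libraries, with lines at the medians and open symbols for E13 replicate 2 and E16 replicate 7. The 9 genes higher at E16 come first, and the E13 points of Hba-x and Hbb-y divide into 2 high libraries and 3 near 0.

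Because Id4 protein binds factors that recognise the E-box, RefSeq promoter windows of the 17 genes (GRCm38.p6, 250 bases before to 50 after a start) were searched for CANNTG, a motif that reads the same on both strands. Of the 17 genes, 13 had a window, 14 windows in all. The motif was in 6 of the 14, against 23756 of 32851 windows (72.3%) in the whole table. Of the genes that rose, 5 of 10 windows held it, and of those that fell, 1 of 4. A pair of windows of genes that rose with the motif, 1 of a gene that rose without it and that of Id4 are shown, from chr9:27791049-27791348 (Opcml), chr13:110394794-110395093 (Plk2), chr6:103510626-103510925 (Chl1) and chr13:48260866-48261165 (Id4), all on the plus strand, with the motif in capitals.
Opcml: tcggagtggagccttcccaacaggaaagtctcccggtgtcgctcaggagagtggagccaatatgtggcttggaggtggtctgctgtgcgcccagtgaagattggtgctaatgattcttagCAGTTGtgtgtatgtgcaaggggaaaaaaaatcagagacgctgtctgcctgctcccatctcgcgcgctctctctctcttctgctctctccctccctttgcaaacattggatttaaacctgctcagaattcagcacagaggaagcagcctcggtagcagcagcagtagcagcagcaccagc
Plk2: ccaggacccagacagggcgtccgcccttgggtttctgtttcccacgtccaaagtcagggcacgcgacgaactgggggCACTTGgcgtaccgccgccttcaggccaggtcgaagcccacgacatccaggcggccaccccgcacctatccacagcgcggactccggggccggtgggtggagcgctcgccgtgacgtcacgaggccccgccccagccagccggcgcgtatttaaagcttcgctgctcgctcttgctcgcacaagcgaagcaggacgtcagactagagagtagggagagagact
Chl1: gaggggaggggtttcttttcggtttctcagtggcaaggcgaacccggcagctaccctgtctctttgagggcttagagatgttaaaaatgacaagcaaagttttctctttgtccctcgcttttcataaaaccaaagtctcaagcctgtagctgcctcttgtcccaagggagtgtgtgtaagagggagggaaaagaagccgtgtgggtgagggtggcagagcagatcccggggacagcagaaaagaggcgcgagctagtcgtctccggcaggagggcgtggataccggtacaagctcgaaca
Id4: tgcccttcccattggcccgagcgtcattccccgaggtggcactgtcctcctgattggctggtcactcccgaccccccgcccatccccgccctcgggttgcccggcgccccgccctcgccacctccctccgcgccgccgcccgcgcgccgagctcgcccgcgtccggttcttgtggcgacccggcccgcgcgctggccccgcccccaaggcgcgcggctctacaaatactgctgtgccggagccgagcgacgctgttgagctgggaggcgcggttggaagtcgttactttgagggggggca

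Next, developmental programmes were followed with lists of known genes. For each list the members that passed the count filter are described by their counts and median, beside the same for all genes, of which 46.98% had a positive log2 fold change. Members that were high at only 1 age could pass the filter through that age. An adjusted p given without a named test is that of edgeR, and those of DESeq2 and limma-voom are given for some genes only.

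The early temporal programme keeps progenitors in a young state through the Lin28, Hmga2 and Igf2bp proteins. Of 12 listed genes 9 were tested, 8 of them with a negative log2 fold change, and the median was −0.47 (−1.06 without the pair). Hmga2, a chromatin protein of young neural stem cells, had 51.7, 0, 52.8, 48.5 and 40.7 CPM at E13 and 0 CPM in all 7 E16 libraries. Its mean was at least 29.4-fold lower at E16 with each E16 library set at the CPM of 3 counts. The E13 library at 0 was replicate 2, one of the pair that stood apart, and in edgeR Hmga2 had an adjusted p of 0.108 with that pair and 0.00191 without it. On the 12 libraries it passed in DESeq2 (adjusted p = 1.4e-05) and limma-voom (adjusted p = 0.00132). Lin28b, a repressor of let-7 microRNA maturation, was uneven at both ages, with 4.73, 0, 4.16, 4.78 and 20.4 CPM at E13 and 0, 0 and 19.7 CPM at E16. For Igf2bp3 and Ccnd1 the ages overlapped, with log2 fold changes of −0.47 (SE 0.72) and −2.43 (SE 1.64), and neither passed in edgeR with or without the pair.

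Late progenitor and gliogenic genes did not move as 1 group. Of 21 listed genes 13 were tested, 9 with a positive log2 fold change, and the median was 0.97 (0.997 without the pair). Zbtb20, a transcription factor of late progenitors and astrocytes, stood at 31.2, 18.8, 18.8, 68.3 and 33.3 CPM at E13 and at 87.1, 148 and 529.8 CPM at E16, without overlap (log2 fold change 2.49, SE 0.59, adjusted p = 0.131, and 0.0491 without the pair). Ptprz1, a receptor phosphatase of radial glia, had 53.3, 668, 22.5, 22.9 and 46.8 CPM at E13 and 156, 211 and 1049 CPM at E16. Its E13 value of 668 came from replicate 2, and its log2 fold change was 0.97 with the pair (adjusted p = 0.919) and 2.44 without it (adjusted p = 0.00159). Sparcl1, an extracellular matrix protein of maturing glia and neurons, had 10.4, 2.81, 0, 8.53 and 5.82 CPM at E13 and 27.0, 66.7 and 73.1 CPM at E16. Its ages did not overlap, and its adjusted p in edgeR was 0.229. DESeq2 and limma-voom called Sparcl1 on the 12 libraries (adjusted p = 0.00059 and 0.01997), and also Zbtb20 (adjusted p = 0.00145 and 0.0206).

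Other genes of the gliogenic list had smaller or negative fold changes, and none of the 3 described next passed in edgeR on the 12 libraries. Slc1a2, a glutamate transporter best known from astrocytes, had 172, 304, 123, 222 and 102 CPM at E13 and 3.08, 22.1 and 104 CPM at E16. Only the highest E16 library reached the E13 range (log2 fold change −2.31, SE 0.65, adjusted p = 0.242, and 0.0365 without the pair). Nfia, which with Nfib opens the gliogenic programme, was at 517, 689.8, 405, 448 and 579.8 CPM at E13 and 207, 284 and 503 CPM at E16 (log2 fold change −0.70, SE 0.30, adjusted p = 0.476, and 0.386 without the pair). Nfib was at 1138, 2405, 1286, 1197 and 1393 CPM at E13 and 1254, 1573 and 2955 CPM at E16 (0.29, SE 0.28, adjusted p = 0.952, and 0.3697 without the pair). Both genes overlapped between the ages.

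**Figure D2:**
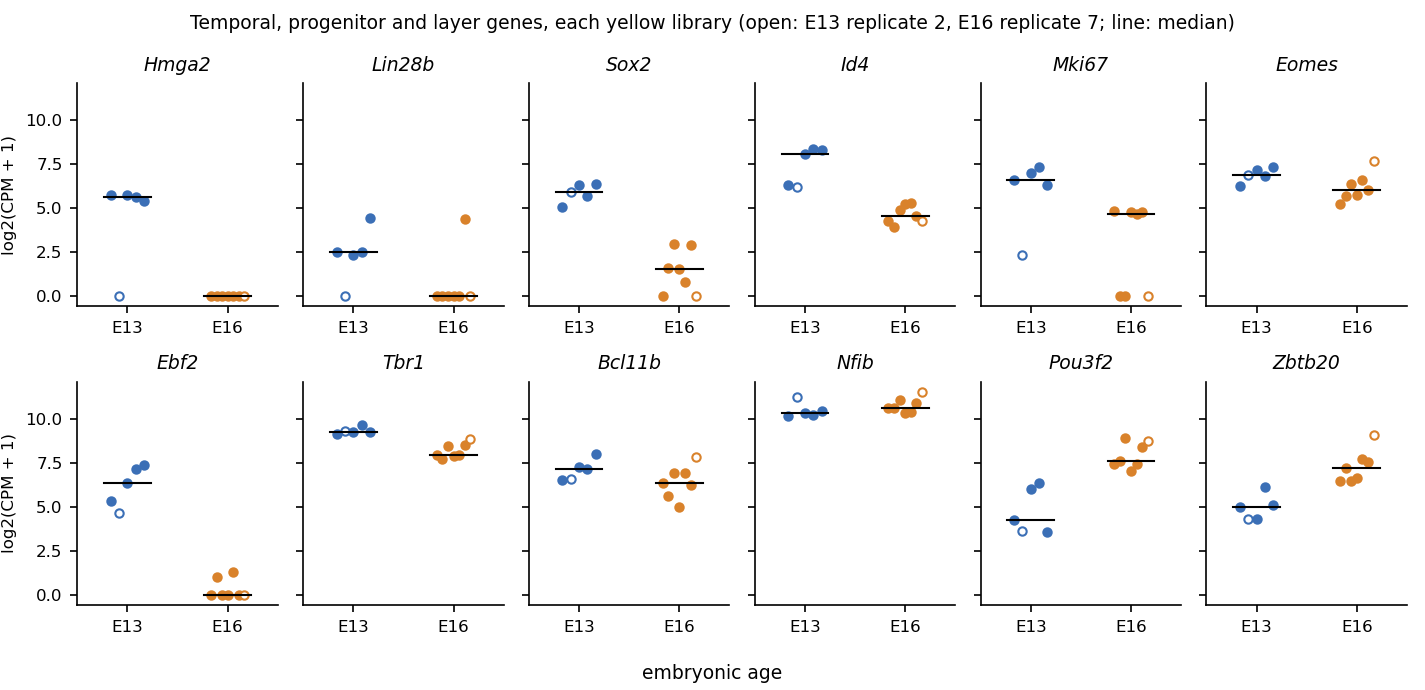
Log2(CPM + 1) of temporal, progenitor and layer genes in each yellow library, E13 beside E16, with bars at the medians and open symbols for the 2 libraries that stood apart. Hmga2 lies at 0 in all 7 E16 libraries, Zbtb20 is higher in every E16 library than in any E13 library, and Sox2 is lower in every one.

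Most radial glia genes had a negative fold change, and none passed in edgeR on the 12 libraries. Of 18 listed radial glia genes 16 were tested, 13 with a negative log2 fold change (median −1.53, and −1.63 without the pair). At an unadjusted p under 0.05, 6 were lower and 0 higher, beside 5.13% and 3.56% of all genes tested. Sox2, the neural stem cell transcription factor, stood at 33.1, 58.9, 79.0, 50.9 and 81.0 CPM at E13 and at 0, 1.93 and 6.90 CPM at E16. The ages did not overlap, with a log2 fold change of −4.51 (SE 1.08, adjusted p = 0.136, and 0.0266 without the pair). Vim, an intermediate filament of radial fibres, had 185, 205, 259, 229 and 273 CPM at E13 and 35.9, 72.3 and 169 CPM at E16, also without overlap, and its adjusted p was 0.263 and 0.077. The ages likewise stood apart for Nes and Hes1, a filament gene and a Notch target, with log2 fold changes of −3.55 (SE 1.33) and −2.17 (SE 0.85), neither of which passed in edgeR. On the 12 libraries limma-voom called Sox2, Vim, Nes and Hes1 (adjusted p = 0.00266, 0.00919, 0.0398 and 0.0401). DESeq2 called Sox2 and Vim there (adjusted p = 0.000119 and 0.036) but not Nes or Hes1. Pax6, the transcription factor of dorsal radial glia, overlapped between the ages, at 140.4, 8.21, 387, 405 and 262 CPM and at 25.7, 38.3 and 196 CPM (adjusted p = 0.515, and 0.148 without the pair). Fabp7, a lipid-binding protein of radial glia, went the other way, with 670, 326, 704, 905 and 447 CPM at E13 and 88.4, 767 and 1594 CPM at E16 (log2 fold change 0.60, SE 0.50, adjusted p = 0.916).

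In the family of Id and Hes regulators 7 of 9 genes were tested, 6 with a negative log2 fold change (median −2.17, and −2.14 without the pair). Id4 fell, while Id2 was the 1 tested member with a positive fold change. Id2 had 268, 329.7, 148, 176 and 97.8 CPM at E13 and 64.8, 554 and 786 CPM at E16. Its lowest E16 value was that of replicate 7, and its log2 fold change of 1.23 (SE 0.50, adjusted p = 0.416) was 1.66 without the pair (SE 0.32, adjusted p = 0.0193). Intermediate progenitor and proneural genes had a median of −0.67 (−0.83 without the pair), with 12 of 14 tested genes negative. Gadd45g, a gene of newly committed cells, had 383, 83.9, 767, 671 and 620.1 CPM at E13 and 31.8, 116 and 275 CPM at E16. The Notch ligand Dll1 had 45.1, 74.8, 47.0, 51.5 and 60.2 CPM at E13 and 0, 3.09 and 10.4 CPM at E16. In edgeR both passed without the pair (adjusted p = 0.0017 for Gadd45g and 0.0206 for Dll1) and not on the 12 libraries (adjusted p = 0.181 and 0.171). DESeq2 and limma-voom called both on the 12 libraries, with adjusted p-values of 0.0326 and 0.000987 for Gadd45g and of 0.000154 and 0.00474 for Dll1. Eomes, which marks intermediate progenitors, overlapped between the ages, with 76.7, 115, 142, 114 and 163 CPM at E13 and 36.1, 64.8 and 207 CPM at E16 (log2 fold change −0.53, SE 0.48, adjusted p = 0.934, and 0.225 without the pair).

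Cell cycle genes of both phases had negative log2 fold changes, although no member passed in edgeR on the 12 libraries. Of 28 S-phase genes 26 were tested and 26 had a negative log2 fold change (median −1.36, and −1.57 without the pair). Of 28 G2 and mitosis genes 26 were tested and 25 were negative (median −1.87, and −2.10 without the pair). Of these 9 were lower at an unadjusted p under 0.05, beside 5.13% of all genes tested. Mcm2, a subunit of the replicative helicase, had 195, 167, 243, 197 and 279 CPM at E13 and 0, 37.5 and 94.5 CPM at E16. Its ages did not overlap (log2 fold change −2.36, SE 0.78), with an adjusted p of 0.316 on all 12 libraries and 0.0163 without the pair. Cenpa, the centromeric histone, had 285, 59.6, 298, 355 and 196 CPM at E13 and 0.341, 56.3 and 115 CPM at E16, and Ube2c, which drives mitotic exit, had 523, 2.11, 373, 375 and 318 CPM at E13 and 6.16, 43.7 and 134 CPM at E16. In both genes the low E13 library was replicate 2, and without the pair the adjusted p was 0.00718 for Cenpa and 0.0193 for Ube2c. Tyms and Birc5, a thymidylate synthase and a chromosome passenger protein, also passed without the pair (adjusted p = 0.00122 and 0.0044). The proliferation marker Mki67 had 95.6, 3.99, 125, 159.7 and 77.2 CPM at E13 and 0, 24.4 and 27.7 CPM at E16 (log2 fold change −2.61, SE 1.21, adjusted p = 0.557), and apart from E13 replicate 2 every E13 library was above every E16 library.

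Genes of neuron maturation were then grouped by role, from the newborn neuron to the synapse. The 12 nascent projection neuron genes, all tested, had a median of 0.47 (0.36 without the pair). Unc5d, a netrin receptor of multipolar neurons, stood at 28.4, 0, 27.4, 23.9 and 6.93 CPM at E13 and at 49.3, 100.5 and 201 CPM at E16. Nrp1, a semaphorin receptor of callosal axons, had 48.9, 22.04, 63.6, 121 and 30.6 CPM at E13 and 139.9, 228 and 262 CPM at E16. For both, each E16 library was above each E13 library, and in edgeR they passed without the pair (adjusted p = 0.0367 for Unc5d and 0.031 for Nrp1) but not on the 12 libraries (adjusted p = 0.303 and 0.171). DESeq2 and limma-voom called both on the 12 libraries, with adjusted p-values of 0.0273 and 0.0282 for Unc5d and of 0.00237 and 0.00734 for Nrp1. Neurod6 also passed without the pair (log2 fold change 0.97, SE 0.20, adjusted p = 0.0262), whereas its relative Neurod2 did not pass, with 132, 177, 206, 81.6 and 129 CPM at E13 and 103, 167 and 499.8 CPM at E16. Of 48 axon guidance genes 38 were tested and 23 had a negative log2 fold change (median −0.28, and 0.12 without the pair), with Chl1 the called member. Robo3, which lets commissural axons cross the midline, was at 0, 24.4, 1.96, 61.8 and 28.4 CPM at E13 and at 0 CPM in all E16 libraries, with an adjusted p of 0.171 in edgeR. On the 12 libraries DESeq2 called Robo3 (adjusted p = 0.0018) and limma-voom did not (adjusted p = 0.1). With the E16 libraries set at 3 counts its mean was at least 17.7-fold lower at E16, which does not hold for each E13 library.

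The neuronal cytoskeleton differed little. Of 26 genes 25 were tested, 18 with a positive log2 fold change, and the median was 0.27 (0.31 without the pair). The microtubule-binding Mapt had 173, 406, 196, 137 and 318 CPM at E13 and 309.6, 333 and 607 CPM at E16, with overlap (log2 fold change 0.59, SE 0.35, adjusted p = 0.753). Tuba1a, the main neuronal alpha-tubulin, had 5125, 3884, 4325, 4383 and 4874 CPM at E13 and 3453, 7458 and 9157 CPM at E16 (0.55, SE 0.24, adjusted p = 0.496). No cytoskeletal member passed in edgeR with or without the pair of libraries, while limma-voom called Tuba1a on the 12 libraries (adjusted p = 0.0279).

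Synapse genes differed from member to member. Presynaptic release genes had a median of 0.01 (0.30 without the pair) over 29 tested of 32, with 15 positive and 14 negative. Unc13a, which primes synaptic vesicles, had 556, 664, 332, 632 and 196 CPM at E13 and 815, 1587 and 2886 CPM at E16. Its ages did not overlap (log2 fold change 1.79, SE 0.40), and its adjusted p was 0.11, and 0.0129 without the pair. The SNARE gene Snap25 had 125, 195, 181, 160.4 and 161 CPM at E13 and 113, 354 and 464 CPM at E16 (0.98, SE 0.36, adjusted p = 0.343, and 0.0143 without the pair). Sv2b, a synaptic vesicle glycoprotein, was lower at E16 without overlap, at 83.3, 34.5, 166, 51.5 and 87.9 CPM against 0, 20.0 and 24.0 CPM (−2.43, SE 0.85, adjusted p = 0.33, and 0.02 without the pair).

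On the postsynaptic side, where 15 of 19 tested genes were positive (median 0.82, and 0.34 without the pair), calcium/calmodulin kinases took opposite directions. Camk2b had 24.9, 1.88, 28.4, 13.7 and 25.1 CPM at E13 and 13.3, 119 and 211 CPM at E16, and Camk4 had 48.9, 3.28, 23.5, 47.1 and 35.3 CPM at E13 and 67.2, 124 and 201 CPM at E16. Camk2a had 144, 0, 122, 319 and 408 CPM at E13 and 0.341, 29.5 and 35.9 CPM at E16. Without the pair all 3 passed, Camk2b at a log2 fold change of 2.56 (SE 0.37, adjusted p = 0.00251), Camk4 at 1.85 (SE 0.34, adjusted p = 0.0143) and Camk2a at −3.23 (SE 0.40, adjusted p = 0.000943). On all 12 libraries their adjusted p-values were 0.226, 0.263 and 0.318.

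Adhesion genes of the IgLON, neurexin, contactin and teneurin families had a median of 0.57 (0.74 without the pair), with 26 of 35 tested genes positive and Opcml past the threshold. At an unadjusted p under 0.05, 7 members were higher and 2 lower, beside 3.56% and 5.13% of all genes tested. Tenm2, a teneurin, had 11.7, 0.938, 16.1, 5.80 and 17.0 CPM at E13 and 52.97, 68.3 and 197 CPM at E16. The calsyntenin Clstn2 had 70.7, 166, 3.42, 120.5 and 54.4 CPM at E13 and 247, 389 and 528 CPM at E16. Both were apart between the ages, with adjusted p-values of 0.131 and 0.229 on the 12 libraries and of 0.0167 and 0.0469 without the pair. Of 31 glutamate and GABA receptor genes 24 were tested (14 positive, median 0.57, and 0.71 without the pair). Grin2b, the NMDA receptor subunit of immature neurons, had 20.5, 59.1, 53.3, 29.7 and 22.8 CPM at E13 and 72.1, 184 and 327 CPM at E16, without overlap (log2 fold change 2.28, SE 0.49, adjusted p = 0.108, and 0.00889 without the pair). The AMPA receptor subunit Gria2 passed without the pair as well (1.43, SE 0.24, adjusted p = 0.00839). Voltage-gated channels, with 30 of 40 tested and a median of −0.10 (0.10 without the pair), and neuronal RNA-binding proteins, with 23 of 25 tested and a median of 0.17 (−0.0090 without the pair), had no member past the threshold in edgeR with or without the pair.

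**Figure D3:**
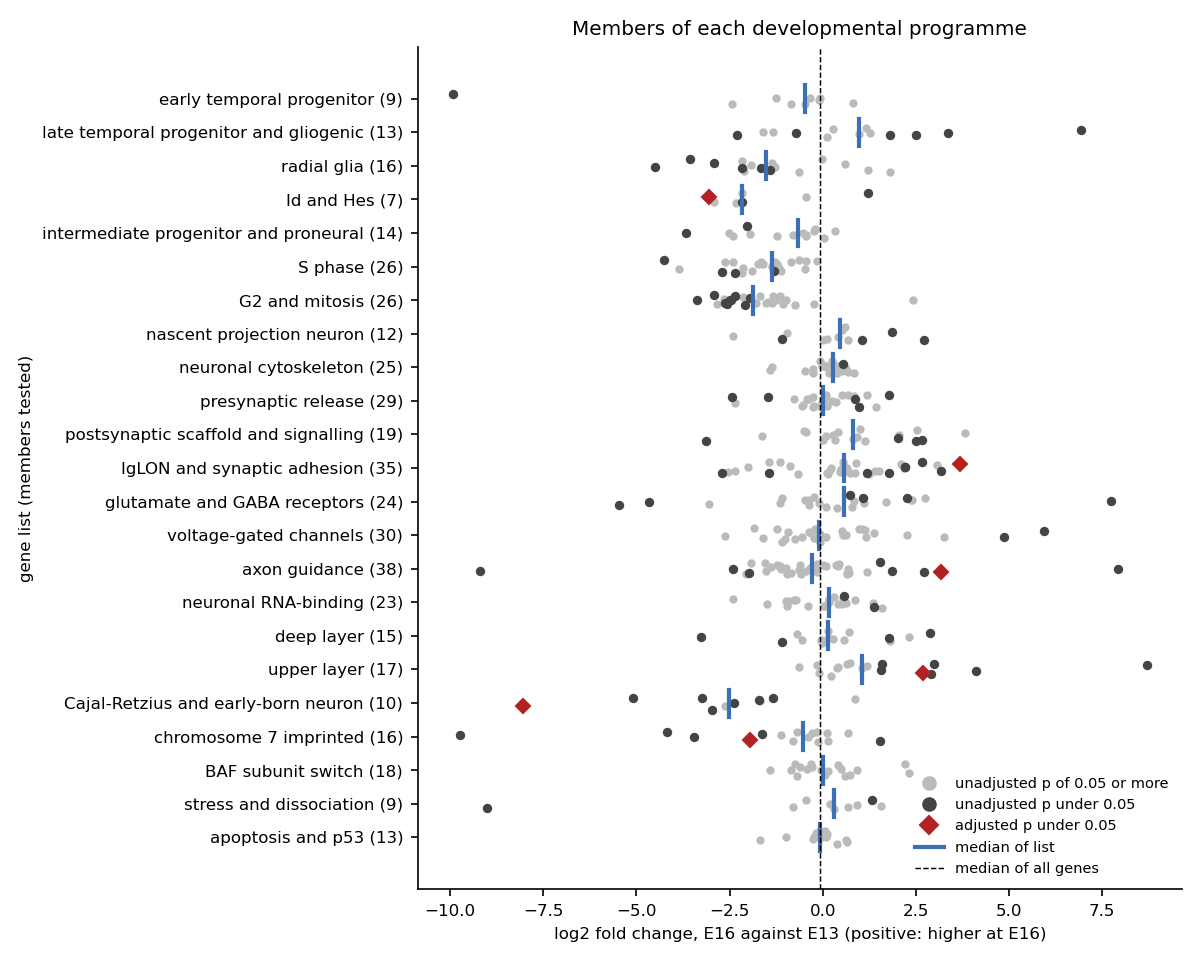
The log2 fold change (E16 over E13, yellow cells) of each tested member of 23 gene lists, 1 point a gene, with a bar at the list's median and a dashed line at the median of all 11378 genes (−0.06). The S-phase points lie below 0 throughout, the upper-layer points mostly above, dark points had an unadjusted p under 0.05, and red diamonds mark genes past an adjusted p of 0.05.

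Layer genes differed by layer in their medians. Of 17 upper-layer genes all were tested and 14 were positive (median 1.07, and 0.98 without the pair). At an unadjusted p under 0.05, 7 were higher at E16 and 0 lower, beside 3.56% and 5.13% of all genes tested. The POU-domain factor Pou3f2 stood at 17.7, 11.3, 62.4, 79.5 and 10.96 CPM at E13 and at 130.3, 194 and 469 CPM at E16. Its ages did not overlap (log2 fold change 2.90, SE 0.62, adjusted p = 0.104, and 0.0427 without the pair). Inhba, the activin A subunit, was at 0 in all 5 E13 libraries and at 0, 8.38 and 47.2 CPM at E16 (adjusted p = 0.171, and 0.0294 without the pair). With the E13 libraries set at 3 counts its mean was at least 20.4-fold higher at E16, which does not hold for each E16 library. Dok5, an adaptor protein, had 43.8, 0, 39.9, 49.5 and 28.9 CPM at E13 and 95.2, 247 and 422 CPM at E16, and Mef2c, a transcription factor of upper-layer neurons, had 98.1, 242, 136, 50.2 and 251 CPM at E13 and 48.8, 564 and 659.9 CPM at E16. They passed without the pair (adjusted p = 0.00041 and 0.0167). Cux1 and Cux2, widely used upper-layer markers, overlapped between the ages with log2 fold changes of 1.07 (SE 0.60) and −0.14 (SE 1.17).

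The 15 deep-layer genes had a median of 0.14 (0.38 without the pair), with 9 positive and 6 negative. Tbr1, which specifies layer 6 neurons, had 563, 623, 599, 805 and 600.4 CPM at E13 and 210.4, 243 and 459 CPM at E16. Its ages did not overlap (log2 fold change −1.09, SE 0.29, adjusted p = 0.181, and 0.00893 without the pair). DESeq2 and limma-voom called Tbr1 on the 12 libraries (adjusted p = 0.0273 and 0.00192). Bcl11b, a factor of subcerebral projection neurons, had 89.0, 94.7, 153, 139 and 254 CPM at E13 and 30.9, 81.3 and 226 CPM at E16, with overlap (−0.54, SE 0.50, adjusted p = 0.939). Crym and Ldb2 were on the higher side at E16, at log2 fold changes of 1.79 (SE 0.61) and 2.88 (SE 0.96) that did not pass in edgeR. The ages did not overlap for Ldb2, which DESeq2 and limma-voom called on the 12 libraries (adjusted p = 0.0342 and 0.0381), and neither called Crym.

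On the 12 libraries the Cajal-Retzius and early-born neuron list had the lowest median of the 23 programme lists, −2.50 over 10 tested of 12. Of its members 9 were negative and 7 were lower at an unadjusted p under 0.05, beside 5.13% of all genes tested. Without the pair its median was −2.03, and the Id and Hes list (−2.14) and the G2 and mitosis list (−2.10) lay lower. Ebf2 was the called member of the Cajal-Retzius list. Reln, the extracellular signal secreted by Cajal-Retzius cells, had 145, 265, 307, 382 and 329 CPM at E13 and 17.5, 116 and 199 CPM at E16, and the ages overlapped (log2 fold change −1.33, SE 0.49, adjusted p = 0.344, and 0.249 without the pair). The helix-loop-helix gene Nhlh2 had 70.0, 11.7, 103, 113 and 118 CPM at E13 and 10.9, 28.6 and 33.1 CPM at E16, and passed without the pair (−1.996, SE 0.41, adjusted p = 0.0272). Lhx1 had 0, 32.8, 3.42, 12.3 and 7.38 CPM at E13 and at most 0.773 CPM at E16 (adjusted p = 0.311).

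**Figure D4:**
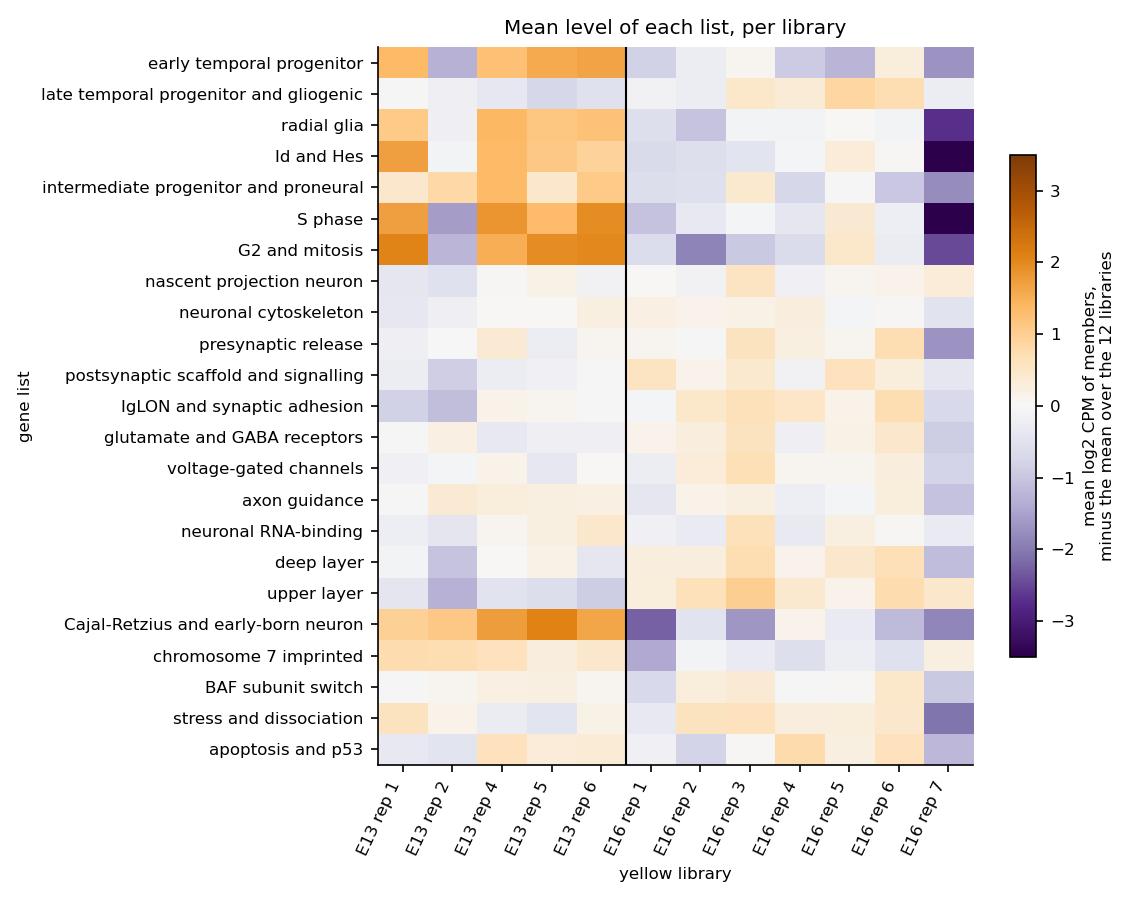
Mean log2 CPM of the tested members of each list in each of the 12 yellow libraries, shown as the difference from the list's mean over the libraries (colour scale in log2 units). The ages do not overlap for the upper-layer, intermediate progenitor, Cajal-Retzius and chromosome 7 imprinted lists, and E13 replicate 2 and E16 replicate 7 stand out in the cell cycle lists.

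Imprinted genes of chromosome 7 were of interest because yellow cells keep 1 maternal and 1 paternal copy. Of 25 listed genes 16 were tested and 12 had a negative log2 fold change (median −0.54, and −0.53 without the pair), and Ndn was the called member. Its neighbour Magel2 had 24.9, 487, 92.7, 44.4 and 82.1 CPM at E13 and 0, 5.03 and 16.9 CPM at E16, without overlap (−4.18, SE 1.12, adjusted p = 0.204, and −2.69, SE 0.87, adjusted p = 0.174 without the pair). DESeq2 and limma-voom called Magel2 on the 12 libraries (adjusted p = 0.00336 and 0.0437). H19, a maternally expressed non-coding RNA, was carried by 1 library, with 421, 1.17, 19.8, 0 and 1.34 CPM at E13 and 1 count in the E16 libraries (adjusted p = 0.0838, and 0.0198 without the pair). Cdkn1c, the maternally expressed inhibitor of cyclin-dependent kinases, had 126, 86.0, 80.2, 28.0 and 33.1 CPM at E13 and 11.3, 26.3 and 64.2 CPM at E16. The ages overlapped, and its log2 fold change of −1.13 (SE 0.61) did not pass (adjusted p = 0.691, and 0.546 without the pair).

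The 18 subunits of the BAF chromatin remodeller, which exchanges subunits as progenitors become neurons, had 9 positive and 9 negative members (median 0.01 with or without the pair), and the neuronal subunit Actl6b was low, at 0, 6.80, 1.22, 1.71 and 3.80 CPM and at 0.387, 7.18 and 47.4 CPM. Apoptosis and p53 genes had a median of −0.06 (0.02 without the pair) over 13 tested of 18, with no member at an unadjusted p under 0.05. Of the stress and dissociation genes 9 of 13 were tested, 6 positive and 3 negative (median 0.30, and 0.71 without the pair). At an unadjusted p under 0.05, 1 was higher and 1 lower, beside 3.56% and 5.13% of all genes tested. The higher one, Fos, an immediate early gene, had 201, 455, 155, 211 and 291 CPM at E13 and 476, 628 and 995 CPM at E16, without overlap (1.32, SE 0.34, adjusted p = 0.171, and 0.00347 without the pair). Fos also responds to cell handling, whose part was not tested.

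Markers of other cell types were uneven across libraries. The 9 erythroid genes summed to 41540, 1215, 56694, 0.683 and 1.34 CPM at E13, in replicates 1 and 4 far above the sums of the pallial genes (1456 and 1986 CPM), and to 2.07 to 1495 CPM at E16, and the 7 meningeal genes to 0 to 650 and 0 to 15.4 CPM, both highest in E13 replicate 1 or 4. The 11 microglial genes summed to 0 to 229 CPM at E13 and 0 to 45.2 CPM at E16, and Trem2, P2ry12 and C1qa were at 0 in all 12 libraries. Endothelial and mural genes reached 119 and 37.97 CPM, with Cldn5 and Kdr at 0 throughout. Choroid and hem genes summed to 12.6 to 95.9 CPM at E13 and to 4.74 to 392 CPM at E16, highest in E16 replicate 3, and oligodendrocyte lineage genes to 3.36 to 137 and 0 to 19.4 CPM. The 15 interneuron genes summed to 19.5 to 330 CPM at E13 and 0 to 447 CPM at E16, but differed among themselves. Npy, a neuropeptide gene, was at 3.47, 0, 8.07, 24.6 and 11.9 CPM at E13 and 0, 197 and 424 CPM at E16 (adjusted p = 0.27, and 0.00917 without the pair), whereas Gad2, which makes GABA, was at up to 86.0 CPM at E13 and at 0 in all E16 libraries. The part of these cells in the gene differences was not tested.

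Finally, the red and green libraries of the same embryos, whose cells have 2 maternal or 2 paternal copies of chromosome 7, gave the age difference in singly coloured cells. Their counts were summed per embryo (10 libraries of 5 embryos at E13 and 14 of 7 embryos at E16), and 414 of 12797 genes (3.24%) passed, 214 higher (1.67%) and 200 lower (1.56%). With the yellow libraries summed in as well, 524 of 13776 genes (3.80%) passed. These embryos also gave most of the yellow libraries, and the values are set side by side without a test of likeness. The paper also left out samples whose correlation with other replicates was consistently low. Red and green libraries were left out here only for low unique alignment. Among those kept, E16 red replicates 5 and 6 had 8803 and 9210 detected genes and E13 green replicate 4 had 9610. The other red and green libraries kept had at least 10194. The part of these libraries in the genes that passed was not tested. Opcml had a log2 fold change of 3.70 (SE 0.44) in yellow and 5.40 (SE 1.05, adjusted p = 0.0118) in red and green cells, Ube2ql1 of 3.09 and 3.03, Chl1 of 3.18 and 3.19, and Id4 of −3.06 and −2.999. Ndn had values that lay further apart, at −1.95 in yellow and −0.40 in red and green cells (SE 0.49, adjusted p = 0.732), and Mturn (1.07, SE 0.31, adjusted p = 0.071) and BC017158 (−1.28, SE 1.12, adjusted p = 0.593) did not pass in red and green cells either. Since Ndn is paternally expressed, its summed level also depends on how deep the red and the green library of an embryo were sequenced. In E16 replicate 7 these held 472924 and 4346711 counts. The part of this in the Ndn values was not tested.

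List members are set side by side as counts and medians. The fits differ in depth, and no list was tested for a difference between them. Of 25 tested cytoskeletal genes, 14 were called higher in red and green cells (median 1.07) and 0 in yellow cells (median 0.27). Mapt had a log2 fold change of 2.51 (SE 0.37, adjusted p = 0.0021) in red and green cells and of 0.59 (SE 0.35) in yellow cells. Of the 26 S-phase genes, 16 were called lower in red and green cells (median −2.19), 0 in yellow cells (median −1.36) and 2 in yellow cells without the pair. Of the 26 G2 and mitosis genes, 10 were called lower in red and green cells (median −2.24), 0 in yellow cells (median −1.87) and 3 in yellow cells without the pair. The difference between the age effects was tested directly, with each embryo as a block, and 0 of 11477 genes (0.00%) passed in edgeR, with 499 genes (4.35%) at an unadjusted p under 0.05. Among the named genes the smallest of these were an unadjusted p of 0.00063 for Clstn2 (yellow minus singly coloured −5.61) and 0.00087 for Mapt (−2.34). The age difference in yellow cells was therefore not shown to differ from that in red and green cells for any single gene.

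**Figure D5:**
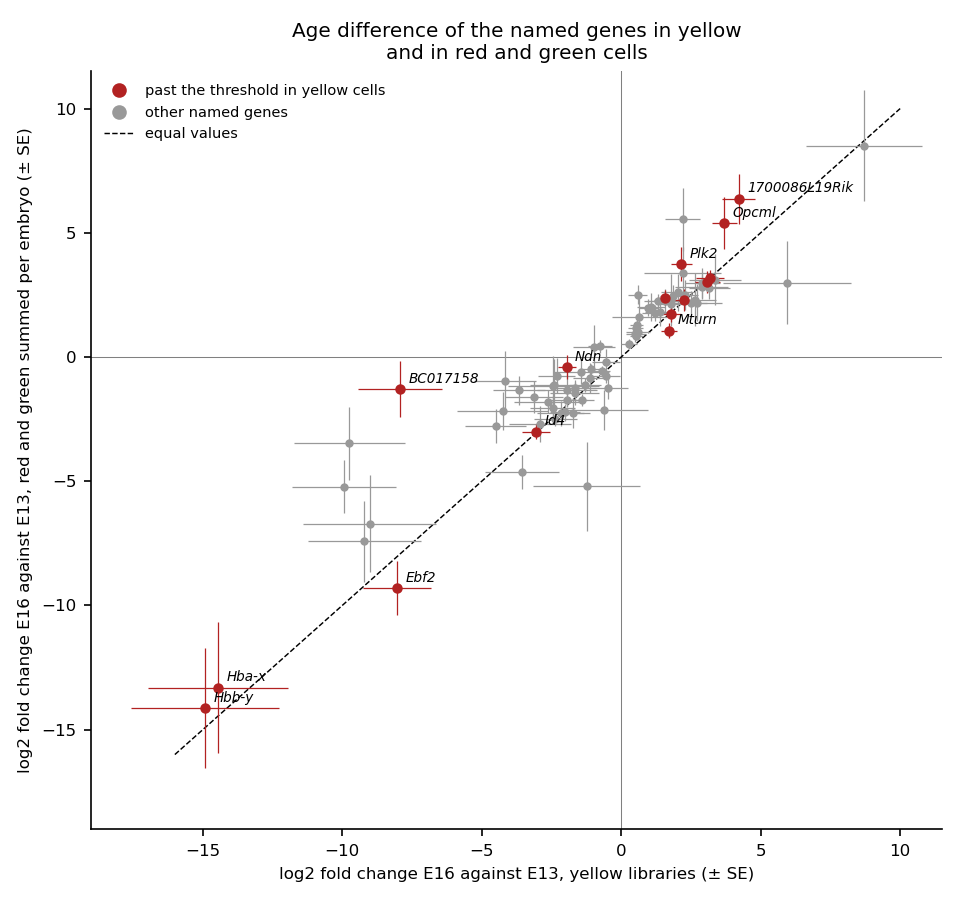
The log2 fold change (E16 over E13) in yellow cells (x axis) and in red and green cells summed per embryo (y axis) for the named genes tested in both, with bars of ± SE and the diagonal of equal values. Opcml (3.70 and 5.40) lies above the diagonal among the genes higher at E16, and Ndn (−1.95 and −0.40) lies above it among the lower ones.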

How the data were processed

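RNA of pools of sorted yellow cells was measured with Smart-Seq2, which carries neither molecular identifiers nor strand, so intervals and the floor of 3 counts cover counting error only. The deposited tables hold read counts per gene that the authors made with STAR; of their 3 count columns the unstranded one was used. The submitters' processing notes name STAR 2.5.0c, SAMtools 1.8, bedtools 2.26.0, GRCm38 and Gencode M16. Of 53379 gene IDs, 53274 were matched to Gencode M21 on GRCm38 for names and positions. Rows for reads outside genes were kept out of library sizes and tests.

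Genes with a mean count of at least 10 over the fitted libraries were tested with the edgeR quasi-likelihood test (edgeR 4.0.16, R 4.3.3, TMM scaling, two-sided, Benjamini-Hochberg adjustment over all genes tested, threshold 0.05). CPM used TMM-scaled library sizes, and the log2 CPM of lists a prior count of 2. The comparison of yellow with red and green cells used 1 fit with the embryo as a block. DESeq2 1.42.0, limma-voom with quality weights (limma 3.58.1), other scaling and filters, sums over libraries and left-out libraries were tried as alternatives, and the scripts were tested on simulated data. The 2 samples E13 replicate 2 and E16 replicate 7 were left out in 1 alternative because the study did so.

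Members and lists were chosen with earlier results of these data known. Named genes were all past the threshold on chromosomes 1 to 19 (with the exceptions below), the up to 3 members of each list with the smallest p, and a set of standard cortical genes. Other genes named because they passed without the pair of libraries, or as known relatives or markers, were chosen after their values were seen. A pair of genes past the threshold and 1 other gene are not reported here.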

Additional observations from a re-analysis of the deposited data

Results flagged for a closer look

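In each age the single library farthest from the others was set against the range of its group, for 242 groups of values (library measures, list levels and named genes at either age). Chance would pick out about 1 in 20 such groups if their values were independent and normally spread. These were not, since the groups share the same libraries. In some groups all other libraries also lay at 0 counts, as for Hba-x at E16. The 1 in 20 is therefore no measure for the 52 picked out here, 19 of them for E13 replicate 2 and 20 for E16 replicate 7. No explanation was weighed for any of them.

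E13 replicate 2 was the low library in detected genes (9655) and the high one in reads outside genes (40.9%). Its mean log2 CPM was lowest for the early temporal (1.82), radial glia (3.86), S-phase (2.47), G2 and mitosis (2.21) and postsynaptic (4.29) lists. Among genes it was low, on the log2 CPM scale, for Hmga2, E2f1 and Camk2a (each −0.66, which is 0 counts), Slbp (4.05), Ube2c (1.46), Camk2b (1.33), Camk4 (1.97), Nhlh2 (3.63), Pax6 (3.14) and Mki67 (2.21), and high for BC017158 (6.32) and Nfib (11.23). Of the other E13 libraries, replicate 1 was high in endothelial and mural genes (5.01), replicate 5 in Tbr1 (9.65) and replicate 4 in Scn1a (1.62).

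E16 replicate 7 had the fewest detected genes (7858). Its mean log2 CPM was lowest for the radial glia (1.33), Id and Hes (1.39), S-phase (0.43), presynaptic (3.85), deep-layer (4.87) and stress (2.96) lists, and highest for the oligodendrocyte lineage markers (4.33). It was the low library for Opcml (8.21), Igf2bp3 (0.73), Id2 (6.03), Cenpa and Camk2a (both −0.037), Snap25 (6.83), Camk2b (3.80) and Smarca2 (6.96), and had 0 counts (−0.66) of Hes1, Mcm2, Sv2b and Bcl2l1.

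Other E16 libraries were picked out less often. Replicate 3 was high in choroid and hem genes (5.74) and in Mapt (9.25), low in Crym (4.89), and held the single count of Hba-x and that of BC017158 (both −0.031). Replicate 5 was high in erythroid genes (3.46), replicate 2 in Hbb-y (1.89) and H19 (0.73), replicate 6 in Lin28b (4.35), and replicate 1 was apart for Ptbp2 (6.34).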

How the results depend on the processing

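The 17 genes past the threshold became 195 with DESeq2, 298 with limma-voom and quality weights, 55 without a count filter and 146 without E13 replicate 2 and E16 replicate 7. Sums of other or all colours per embryo gave 414 for red and green cells and 524 for the 3 colours, while sums of replicates 1 to 3 and of replicates 4 and above within each age gave 2. Of the 17 genes, 17 were among the DESeq2 calls, 15 among those of limma-voom and 16 among those without the 2 libraries. DESeq2 size factors within edgeR kept 17. With 1 library left out the count ran from 1 to 31. Chosen after seeing the data, replicates 1 to 3 alone and replicates 4 and above alone gave 0 each, and leaving out the 2 libraries rich in embryonic globin gave 1. The causes were not tested, and the subsets also hold fewer samples. Without E13 replicate 1, 1 gene passed for the difference between yellow and singly coloured cells, and with any other single embryo left out 0 did.

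The replicate number as a block gave 6 genes. It does not pair the ages, since libraries of equal number came from different embryos, 0 of 5 pairs had deviations correlated over 0.1, and 1 E13 library was closest to its own number.

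The alternatives gave 3007 values, for 88 named genes, for lists and for the counts of genes past the threshold. List medians were scored only as the same (575 values) or moved (46), so a change of sign was not counted for them. Without E13 replicate 2 and E16 replicate 7 the median changed sign for the axon guidance, voltage-gated channel, neuronal RNA-binding and apoptosis lists. Among the named genes 13 values changed direction. On replicates 1 to 3 alone the log2 fold change was 0.51 for Ccnd1, 0.53 for Igf2bp3, −0.64 for Bax, −0.0078 for Neurod2 and −0.013 for Nfib. Red and green sums gave 0.43 for Ptbp2 and 0.42 for Casp9, and sums of all colours 0.12 for Casp9. Over the fits with 1 library left out Bax ran from −0.00941 (without E16 replicate 7) to 0.82. Nfib was at −0.058 with E13 yellow replicate 3 kept. Emx1 ran from −1.08 to 0.44 (without E13 replicate 6) over those fits, and was at 0.53 with a term for replicates 1 to 3 against 4 and above and 1.09 with the replicate block. None of these genes was past the threshold. The least deep library held 1032329 counts, and there 3 counts correspond to 3.08 CPM.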

Other observations

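The genes past the threshold differed in length. The 11 genes higher at E16 spanned a median of 79.0 kb in the annotation and the 6 lower ones 4.25 kb, against 24.4 kb over all genes tested. Without E13 replicate 2 and E16 replicate 7 the medians were 120 kb for 88 higher and 11.7 kb for 58 lower genes, and at an unadjusted p under 0.05 on the 12 libraries they were 33.4 kb and 18.6 kb. No test of this difference was made, since genes are not replicates.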
